A study of Homo sapiens with 64 samples.

Results

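The data are the 4 HEK293T libraries taken at the 24 h time point after treatment with an siRNA against NOP56 (siNOP56, 2 libraries) or with a control siRNA (siCTRL, 2 libraries), out of 64 libraries in the series. HEK293T is a human embryonic kidney line that carries the SV40 large T antigen. They were chosen by their labels alone, which give the cell line, the siRNA and the hour, and no measured value entered the choice. The study sampled each siRNA at 0, 6, 12 and 24 h to follow mRNA decay, so all 4 libraries share the 24 h wait. The means of blocking transcription is not stated in those sources. Another siRNA, against FBL (siFBL), was sampled at the same hours. The design text of the series names a short hairpin for NOP56 where the sample labels name an siRNA, and the labels are followed here. Nothing says that the 2 libraries of a group came from separate cultures. The p-values of the main fit therefore measure a spread between libraries that may be technical. That spread was pooled over all 24 HEK293T libraries of the time course, not taken from these 4 alone.

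NOP56 is a scaffold protein of box C/D small nucleolar ribonucleoproteins (snoRNPs), in which it sits beside NOP58, the RNA-binding protein SNU13 and the methyltransferase fibrillarin (FBL). Each particle holds 1 box C/D RNA, whose short C and D motifs bind the proteins and whose guide stretch pairs with ribosomal RNA at the nucleotide that receives a 2′-O-methyl group. A few particles, such as U3, are needed for the cutting of pre-ribosomal RNA and do not guide its methylation. FBL has also been linked to methylation inside mRNAs. Most human box C/D RNAs lie in introns of host genes, several of which encode ribosomal proteins or translation factors.

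Total counts ran from 16e6 to 19.7e6 in the 4 libraries, and values are given in CPM, counts divided by a library total that TMM scaling corrected, so each is relative to the rest of its library and a change shared by all mRNAs would not show. In bulk RNA, fewer cells of a type and less RNA per cell cannot be told apart. Of 25207 genes in the tables, 14939 passed the filter on low counts and were tested. Markers of HEK293T cells summed to 841 to 843 CPM in siCTRL and to 960 to 1180 CPM in siNOP56 over 14 genes, while KLK2, KLK3 and TRPM8, defining markers of the prostate line C4-2 in the same series, had no count in any of the 4 libraries. LIN28B (log2 difference 0.68) and ADRB1 (-2.00) of the HEK293T markers were themselves called in edgeR. ADRB1 rests on low counts, at 0.94 and 1.35 CPM in siCTRL and 0.131 and 0.427 CPM in siNOP56, and DESeq2 did not call it. HOXB9 made up the largest part of the HEK293T sum, at 394 and 381 CPM in siCTRL and 525 and 501 CPM in siNOP56. The markers did not move together: of 13 tested, 7 had a log2 difference above 0. Their median difference from the siCTRL mean was 0.0943 in siNOP56 replicate 1 and -0.422 in replicate 2. The 15 C4-2 markers summed to 97.7 to 102 CPM in siCTRL and to 89.8 to 94.8 CPM in siNOP56. Fibroblast markers summed to 62.4 to 67.0 CPM and to 39.1 to 54.9 CPM over 10 genes, with COL1A2 and FAP at 0 in all 4, and DCN and THY1 at 0 in siCTRL. Leukocyte markers summed to 10.2 to 13.7 CPM and to 12.9 to 14.7 CPM over 10 genes, with PTPRC and CD3D at 0, and the part of any of these cells in the results was not tested. The 2 siNOP56 libraries stood apart from each other: their counts differed by a chi-square of 51.7 per gene, against 3.59 for the 2 siCTRL libraries. The difference between replicate 1 and replicate 2 correlated across genes between hours by 0.65 to 0.88 in siNOP56 and by -0.026 to 0.19 in siCTRL, as a description over genes that are not independent. Many genes are therefore given library by library, and the others by the pooled log2 difference alone. Fits with each library left out are given for counts of calls and for some single genes.

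NOP56 mRNA, the target, was at 166 and 159.9 CPM in the siCTRL libraries and at 88.0 and 51.5 CPM in the siNOP56 libraries. Both siNOP56 libraries lay below both controls, and replicate 2 was the lower. The log2 difference was -1.22 with an SE of 0.22, and the adjusted p in edgeR's quasi-likelihood test was 0.00737. At 0 h the same siRNA had already left 92.0 and 76.4 CPM against 206 and 203.9 CPM. The call at 24 h was lost without siCTRL replicate 1 (adjusted p = 0.0688), without siCTRL replicate 2 (0.0694) and without siNOP56 replicate 2 (0.0931), with log2 differences of -1.19, -1.24 and -0.88.

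The other 3 core proteins were not called. FBL, the methyltransferase, was at 304 and 303 CPM in siCTRL and at 484 and 316 CPM in siNOP56, with replicate 1 far above the other 3 libraries (log2 difference 0.40, SE 0.29, edgeR adjusted p = 0.466). NOP58, the partner of NOP56 on the same RNA, was at 189.9 and 200.5 CPM against 217 and 251 CPM (0.26, SE 0.14, adjusted p = 0.313). SNU13, listed under its older symbol NHP2L1, binds the fold formed by boxes C and D, and was at 173 and 158 CPM against 202 and 209 CPM (0.32, SE 0.16, adjusted p = 0.26). Both siNOP56 libraries were above both controls for all 3, which 29.7% of all genes tested also were.

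**Figure D1:**
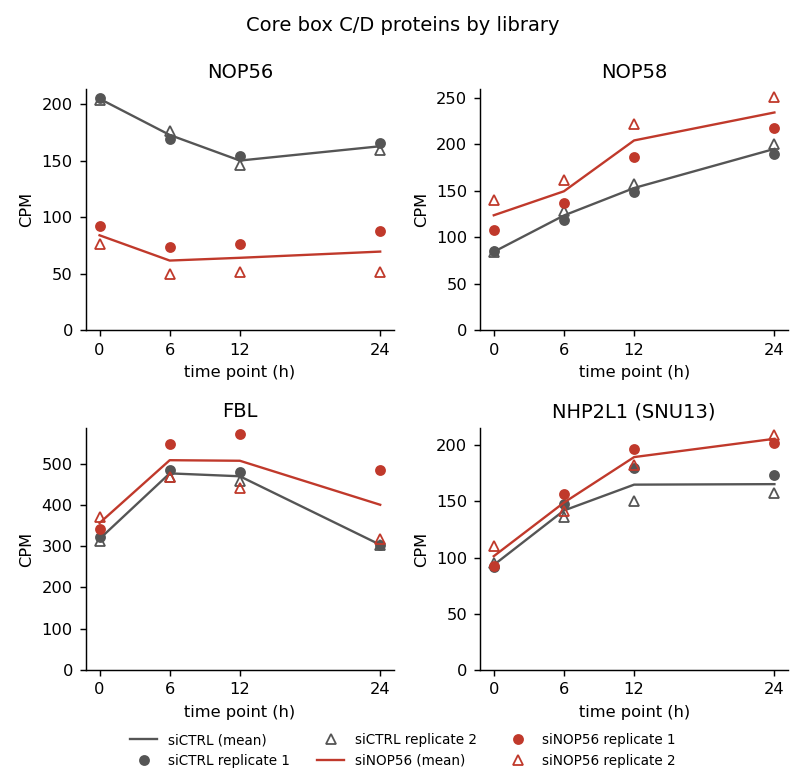
CPM of the 4 core box C/D protein mRNAs (y axis) at 0, 6, 12 and 24 h (x axis) in siCTRL (grey) and siNOP56 (red); filled circles are replicate 1, open triangles replicate 2 and lines the mean of 2 libraries. NOP56 is lower in siNOP56 at every hour, at 88.0 and 51.5 CPM against 166 and 159.9 CPM at 24 h, and FBL at 24 h is high in replicate 1 only.

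Across the transcriptome, 535 genes were called higher and 259 lower in siNOP56 than in siCTRL at 24 h, where called means a Benjamini-Hochberg adjusted p below 0.05 in edgeR over all genes tested. These are 3.58% and 1.73% of the genes tested, or 5.31% in both directions. The median log2 difference of all genes was 0.0299. Of the called genes, 128 were higher by a log2 difference of at least 1 and 146 lower by as much. All 794 had both siNOP56 libraries on the same side of both siCTRL libraries. Over all genes tested this held for 55.4%, with 29.7% above and 25.7% below.

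For siNOP56 against siCTRL at 24 h the number of calls rested on the spread pooled over all 24 HEK293T libraries and on single libraries. The pool mixes groups whose chi-square per gene ran from 1.48 (siCTRL at 0 h) to 75.4 (siFBL at 24 h). Its libraries are not independent, since replicate deviations correlated between hours by 0.65 to 0.88 in siNOP56 and by 0.81 to 0.91 in siFBL. A fit of the 4 libraries alone called 0 genes in edgeR, with 2946 at an unadjusted p below 0.05. With all 24 libraries the count was 43 without siCTRL replicate 1, 31 without siCTRL replicate 2, 62 without siNOP56 replicate 2 and 1087 without siNOP56 replicate 1, where the lone library is assumed to vary like the other groups. Scaled to the ribosomal protein mRNAs instead, 109 genes were called higher and 129 lower, so that the share higher went from 67.4% to 45.8%. Of the 81 genes that the naming rule took from these calls, by size or as list members, 8 kept their call whichever 1 of the 4 libraries was left out: IFRD1, DLEU1, METTL5, DNAJA1, NDUFB9, HOXA13, RPL13A and SNORD17. The other 73 lost it in at least 1 of these fits. Genes named below for the other contrasts were not followed in this way against siCTRL.

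Called genes moved further in siNOP56 replicate 2, the library with less NOP56 mRNA. Among genes called higher, the median log2 difference from the siCTRL mean was 0.614 in replicate 1 and 0.848 in replicate 2, and 79.1% were further up in replicate 2. Among genes called lower the medians were -0.841 and -1.03, and 71.4% were further down in replicate 2. Both libraries entered the calls, so these values describe the called genes and test nothing.

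**Figure D2:**
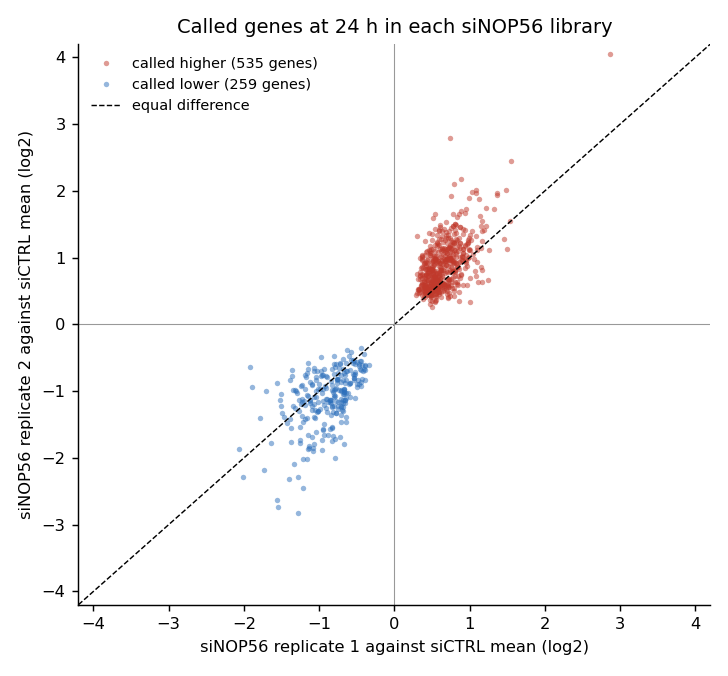
Log2 difference of each called gene from the siCTRL mean at 24 h in siNOP56 replicate 1 (x axis) and replicate 2 (y axis), with 0.5 CPM added to each value; red points are 535 genes called higher, blue points 259 called lower, and the dashed line marks an equal difference. Most red points lie above the line and most blue points below it.

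IFRD1, which encodes an interferon-related developmental regulator, had the highest log2 difference of the called genes averaging 5 CPM or more. It was at 8.67 and 8.79 CPM in siCTRL and at 66.6 and 151.8 CPM in siNOP56. Every siNOP56 value was above every control, with a log2 difference of 3.64 (SE 0.47, edgeR adjusted p = 0.000832), or 12.5-fold.

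The next highest were PRTG, a cell surface protein of the immunoglobulin superfamily (log2 difference 2.16), and KHDRBS3, an RNA-binding protein of the STAR family (1.85). PRTG was uneven, at 9.76 and 11.1 CPM in siCTRL and at 17.7 and 75.3 CPM in siNOP56. DLEU1, a long noncoding RNA, was at 7.37 and 9.96 CPM against 25.1 and 36.6 CPM (1.83, SE 0.24, edgeR adjusted p = 0.00114). OSBPL6, a lipid-binding protein (1.75), POLR3C, a subunit of RNA polymerase III (1.74), and TMEM39B, a membrane protein (1.63), followed. METTL5, the enzyme that places m6A in 18S ribosomal RNA, was at 5.28 and 6.21 CPM against 15.1 and 20.2 CPM (1.62, SE 0.22, edgeR adjusted p = 0.00133). NRBP1, a pseudokinase, and ALKBH3, a demethylase that repairs alkylated nucleic acids, each differed by 1.59.

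Among genes called lower at that level, SNORD17, a box C/D RNA, had the largest difference and is described with the other small nucleolar RNAs. SLC22A31, a solute carrier, was at 10.2 and 10.1 CPM in siCTRL and at 3.14 and 1.10 CPM in siNOP56 (log2 difference -2.26, SE 0.64, edgeR adjusted p = 0.0497). RASSF5, a Ras effector, differed by -2.20 and SULT1A1, a sulfotransferase, by -2.08. The remaining genes of the 10 lowest include 2 cadherins, CDH1 (-1.90) and CDH23 (-1.71), and SFRP1, a secreted inhibitor of Wnt signalling (-1.63).

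CDH1, the epithelial cadherin, was at 8.96 and 8.67 CPM in siCTRL and at 3.34 and 1.40 CPM in siNOP56, with no overlap. FXYD6, a regulator of the sodium pump, went from 31.8 and 30.4 CPM to 12.5 and 3.96 CPM (-1.92). RPL22L1, a paralogue of a ribosomal protein, was at 104.8 and 100.4 CPM against 44.0 and 18.3 CPM (-1.72, SE 0.40, edgeR adjusted p = 0.0237). HOXA13, a homeobox factor, was the most even of the group, at 9.18 and 8.12 CPM against 2.81 and 2.99 CPM (-1.57, SE 0.20, edgeR adjusted p = 0.000832).

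**Figure D3:**
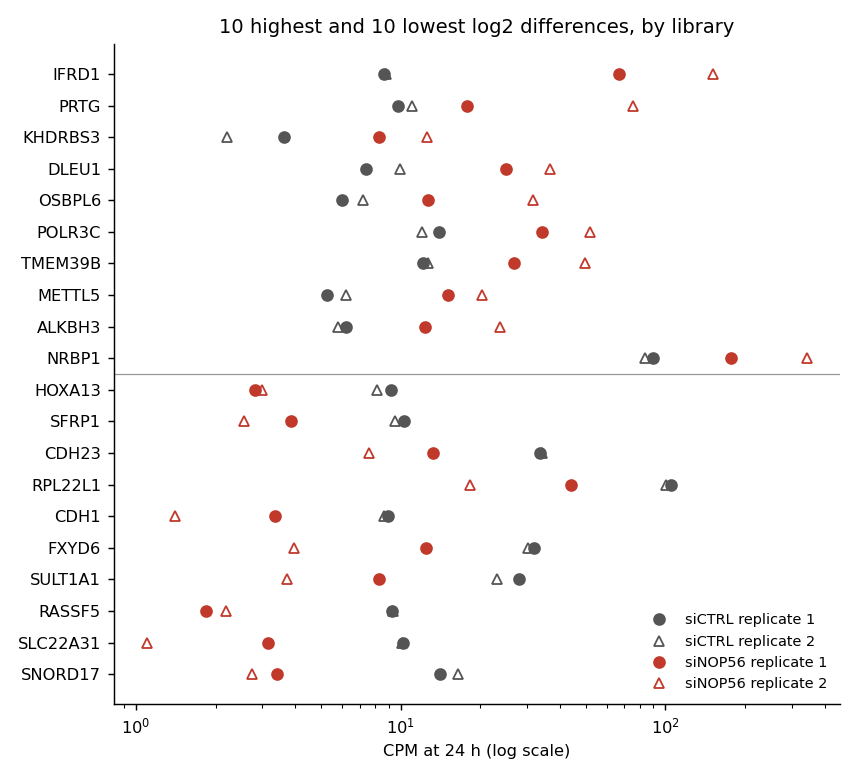
CPM at 24 h (x axis, log scale) of the 10 genes with the highest and the 10 with the lowest log2 difference among called genes averaging 5 CPM or more (y axis, in order); grey is siCTRL, red siNOP56, filled circles replicate 1 and open triangles replicate 2. The 2 colours do not overlap for any gene, a condition of the choice, and PRTG, FXYD6 and SLC22A31 are widely spread within siNOP56.

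Of 262 box C/D RNA genes in the tables (symbols starting with SNORD), 50 passed the filter, and 3 of these were called, all lower, against 1.73% of all genes. The libraries were made from polyadenylated RNA, and mature box C/D RNAs carry no poly(A) tail, so these counts may not follow the mature RNAs. The 2 called RNAs for which a sequence was at hand are shown because NOP56 acts on particles built on such RNAs. Capitals mark box C (TGATGA, first match) and box D (CTGA, last match), the motifs on which the core proteins assemble, and both RNAs are from GENCODE release 29 on GRCh38, minus strand, SNORD17 at chr20:17962710-17962946 within the bounds of SNX5 and OVOL2, and SNORD43 at chr22:39319050-39319113 within RPL3.
SNORD17: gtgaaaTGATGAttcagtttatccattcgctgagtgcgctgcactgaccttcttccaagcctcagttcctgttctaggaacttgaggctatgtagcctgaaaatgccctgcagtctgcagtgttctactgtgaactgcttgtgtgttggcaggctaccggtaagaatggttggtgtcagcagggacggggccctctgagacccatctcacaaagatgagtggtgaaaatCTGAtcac
SNORD43: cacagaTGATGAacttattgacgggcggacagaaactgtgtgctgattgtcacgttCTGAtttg

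SNORD17 was at 14.1 and 16.5 CPM in siCTRL and at 3.40 and 2.74 CPM in siNOP56. All siNOP56 values were under all controls, with a log2 difference of -2.31 (SE 0.24, edgeR adjusted p = 0.000227). Its 237 bases overlap no exon of a coding SNX5 transcript, and SNX5 mRNA itself, at 134.9 and 132.7 CPM against 76.5 and 104.0 CPM, was not called (-0.57, SE 0.21, adjusted p = 0.121).

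SNORD43 was at 2.60 and 2.89 CPM in siCTRL and at 0.654 and 0.792 CPM in siNOP56 (-1.91, SE 0.35, edgeR adjusted p = 0.00741). Here the annotation also places an exon of a coding RPL3 transcript over the RNA, and RPL3 mRNA was called lower as well. Whether reads of the host were counted for the small RNA cannot be told from these counts. SNORD80, whose host is the noncoding GAS5, was at 0.795 and 0.984 CPM against 0.0655 and 0.183 CPM (-2.76, SE 0.65, edgeR adjusted p = 0.0243), and GAS5 differed by -0.12 (adjusted p = 0.853). The number of SNORD genes called was 1 without siCTRL replicate 1, siCTRL replicate 2 or siNOP56 replicate 2, namely SNORD17, and 4 without siNOP56 replicate 1, where SNORD80 was at an adjusted p of 0.0878.

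Box H/ACA RNAs, which guide pseudouridylation and bind a different set of proteins, had 34 of 106 genes past the filter and 0 called in edgeR. Of all genes tested, 5.31% were called. At an unadjusted p below 0.05 in edgeR, 4 of the 34 were higher and 0 lower, beside 1862 higher and 1294 lower of all 14939 genes. DESeq2 called 1 of the 34. Without siNOP56 replicate 1 edgeR called 3. SNORA26 was at 0.289 and 0.246 CPM against 0.851 and 1.46 CPM (log2 difference 2.1, edgeR adjusted p = 0.0649), and SNORA18 differed by 1.19 (0.0718).

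SCARNA2, a box C/D RNA of Cajal bodies, was the 1 called gene among 7 of its class that passed the filter, against 3.58% of all genes called higher. It was at 12.9 and 9.96 CPM in siCTRL and at 34.1 and 34.2 CPM in siNOP56, with 2 nearly equal siNOP56 values. The log2 difference was 1.58 (SE 0.30, edgeR adjusted p = 0.00823). At 0 h the RNA was at most 0.222 CPM in any of the 4 siCTRL and siNOP56 libraries. The call was lost without siCTRL replicate 1, siCTRL replicate 2 or siNOP56 replicate 2.

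Of 13 factors that assemble snoRNPs, 5 were called higher and 0 lower, against 3.58% and 1.73% of all genes, and the list's median log2 difference was 0.334. RPAP3, a cochaperone of the R2TP complex, was at 31.8 and 36.4 CPM in siCTRL and at 50.9 and 80.7 CPM in siNOP56 (0.95, edgeR adjusted p = 0.0246). TAF9, a TFIID subunit listed with them, was at 134.2 and 124.9 CPM against 220.1 and 224.4 CPM (0.78, edgeR adjusted p = 0.00409). The AAA+ ATPase RUVBL2 differed by 0.55 and NOLC1, a chaperone of snoRNPs in the nucleolus and Cajal bodies, by 0.52. PIH1D1, which joins RPAP3 in R2TP, was at 186.4 and 182.3 CPM against 157.5 and 115.3 CPM (-0.44, adjusted p = 0.25). The count was 1, 0 and 1 without siCTRL replicate 1, siCTRL replicate 2 or siNOP56 replicate 2, and 3 without siNOP56 replicate 1.

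Among 6 proteins of H/ACA particles, DKC1, their pseudouridine synthase, was the 1 called, against 3.58% of all genes called higher and 1.73% called lower. It was at 77.0 and 77.1 CPM in siCTRL and at 116 and 205.4 CPM in siNOP56 (log2 difference 1.06, SE 0.26, edgeR adjusted p = 0.0294), and without siNOP56 replicate 2 the difference was 0.60 (adjusted p = 0.375). The median of the 6 was 0.0539.

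Genes of ribosome biogenesis gave 15 calls, the most of the lists counted. Of 63 members tested, 15 were called higher and 0 lower, against 3.58% of all genes called higher. The called members include DKC1 and NCL, which are also counted among the H/ACA proteins and the host genes. The median log2 difference was 0.586, and 59 of the 63 were above 0, compared with 7834 of 14939 genes overall. The median stayed between 0.44 and 0.737 under every alternative run. The list was assembled with earlier results of these libraries known, so its count is no independent evidence.

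RRP12, an export and maturation factor of the small subunit, was at 57.7 and 64.5 CPM in siCTRL and at 118.6 and 204.1 CPM in siNOP56 (log2 difference 1.40, SE 0.31, edgeR adjusted p = 0.0193). RRP9, the protein specific to the U3 box C/D snoRNP, was at 24.7 and 26.6 CPM against 55.1 and 65.0 CPM (1.23, SE 0.34, edgeR adjusted p = 0.0457). NOC4L, a nucleolar complex protein (1.21), and PWP2, a subunit of the UTP-B complex (1.15), completed the 4 largest. The number of members called was 1 without siCTRL replicate 1, 1 without siCTRL replicate 2, 1 without siNOP56 replicate 2 and 21 without siNOP56 replicate 1. Scaled to ribosomal protein mRNAs, it was 5.

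Promoters of the list were searched for CACGTG, the E-box letters read by MYC and related factors, which are the same on both strands. RefSeq windows on GRCh38.p14, from 250 bases before to 50 after a start, were matched for 53 of the 63 members, and 22 of their 58 promoters (37.9%) held the letters, against 9.17% of 15755 promoters of all genes tested and 7.26% of 35116 promoters in the table. By gene, 39.6% of the matched members had it, against 12.6% of genes tested with a window, which are 71.7% of the genes tested. Over all genes called higher, 13.6% of promoters held the letters, and over all called lower, 5.56%. By gene these shares were 17.3% and 8.7%. Called members were counted on a narrower set of windows, those kept for printing, which may leave out called members that have a window. That count is therefore not on the same basis as the shares above. Of the 12 called members in that set, 7 had it. Those of the 2 largest changes with a match are shown, RRP9 at chr3:51941855-51942154 on the minus strand and PWP2 at chr21:44107149-44107448 on the plus strand, with the match in capitals.
RRP9: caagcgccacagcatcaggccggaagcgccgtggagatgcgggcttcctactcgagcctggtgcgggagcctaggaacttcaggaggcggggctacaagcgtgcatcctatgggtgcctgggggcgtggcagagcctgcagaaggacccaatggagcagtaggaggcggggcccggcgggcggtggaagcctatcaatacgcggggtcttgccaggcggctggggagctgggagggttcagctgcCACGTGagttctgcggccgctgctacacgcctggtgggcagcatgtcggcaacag
PWP2: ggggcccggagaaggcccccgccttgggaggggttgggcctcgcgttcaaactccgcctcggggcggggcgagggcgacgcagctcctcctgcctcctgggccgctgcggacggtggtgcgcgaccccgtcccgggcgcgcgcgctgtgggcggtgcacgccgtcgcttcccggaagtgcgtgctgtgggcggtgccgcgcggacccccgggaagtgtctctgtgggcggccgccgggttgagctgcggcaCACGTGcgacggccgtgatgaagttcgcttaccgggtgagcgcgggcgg
The match starts at base 246 of the RRP9 window and at base 252 of the PWP2 window, next to the annotated start. Letters in a promoter do not show that a factor binds there.

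RNA polymerase I, which transcribes the ribosomal RNA precursor, had 2 of 19 genes called, both higher, against 3.58% of all genes, with a median of 0.322. ZNRD1, one of its small subunits, was at 4.77 and 3.63 CPM against 8.18 and 7.44 CPM (log2 difference 0.90, edgeR adjusted p = 0.0253). POLR1C, shared with RNA polymerase III, differed by 0.91 (0.0475). Neither was called without siCTRL replicate 1, siCTRL replicate 2 or siNOP56 replicate 2, or when scaled to ribosomal protein mRNAs.

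Ribosomal protein mRNAs centred near 0. Their median log2 difference was -0.0716 over 77 tested, and 29 of them were above 0. That sign was not stable, since the median was 0.00758 without siCTRL replicate 1 and 0.0336 without siNOP56 replicate 2. RPL13A and RPL3 were the 2 called, both lower, against 1.73% of all genes.

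RPL13A, a large subunit protein, was at 155.2 and 149.0 CPM in siCTRL and at 56.4 and 54.3 CPM in siNOP56. The 4 values fell into 2 tight pairs, with a log2 difference of -1.46 (SE 0.15, edgeR adjusted p = 0.000227). RPL3, which lies at the peptidyl transferase centre, was at 3301 and 3135 CPM against 1917 and 1441 CPM (-0.94, SE 0.20, edgeR adjusted p = 0.0138). Both genes are known hosts of box C/D RNAs. Without siCTRL replicate 1, siCTRL replicate 2 or siNOP56 replicate 2 the count in the list was 1, and it was 2 higher and 6 lower without siNOP56 replicate 1.

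Of 25 other hosts of small nucleolar RNAs, 2 were called higher and 2 lower, against 3.58% and 1.73% of all genes, with a median of 0.0671. NCL, which encodes nucleolin, was at 647 and 677 CPM in siCTRL and at 994 and 1001 CPM in siNOP56 (log2 difference 0.59, edgeR adjusted p = 0.0061). HSPA8, the constitutive HSP70 chaperone, was at 161.9 and 168.6 CPM against 271 and 418 CPM (1.06, edgeR adjusted p = 0.0286). EIF4A2, a translation initiation helicase, was at 179.9 and 175.4 CPM against 92.8 and 62.6 CPM (-1.19, edgeR adjusted p = 0.0118). SNHG5, a noncoding host, differed by -0.82 (edgeR adjusted p = 0.0253). The list held 0 calls without siCTRL replicate 1, siCTRL replicate 2 or siNOP56 replicate 2.

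Of 36 translation initiation factors tested, 12 were called higher and 1, EIF4A2, lower, against 3.58% and 1.73% of all genes, and the list median was 0.314. EIF5, which triggers GTP hydrolysis on the initiator complex, was at 99.9 and 105.5 CPM in siCTRL and at 224 and 379.5 CPM in siNOP56 (log2 difference 1.56, SE 0.43, edgeR adjusted p = 0.0475). EIF3D, the cap-binding subunit of eIF3, was at 281 and 271 CPM against 500.3 and 869 CPM (1.31, edgeR adjusted p = 0.012), and EIF3J, a loosely bound subunit, differed by 1.20. Replicate 2 was the higher siNOP56 library for all 3. Without siCTRL replicate 1, siCTRL replicate 2 or siNOP56 replicate 2 the list held 1 call each, and scaled to ribosomal protein mRNAs it held 4 higher and 1 lower.

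**Figure D4:**
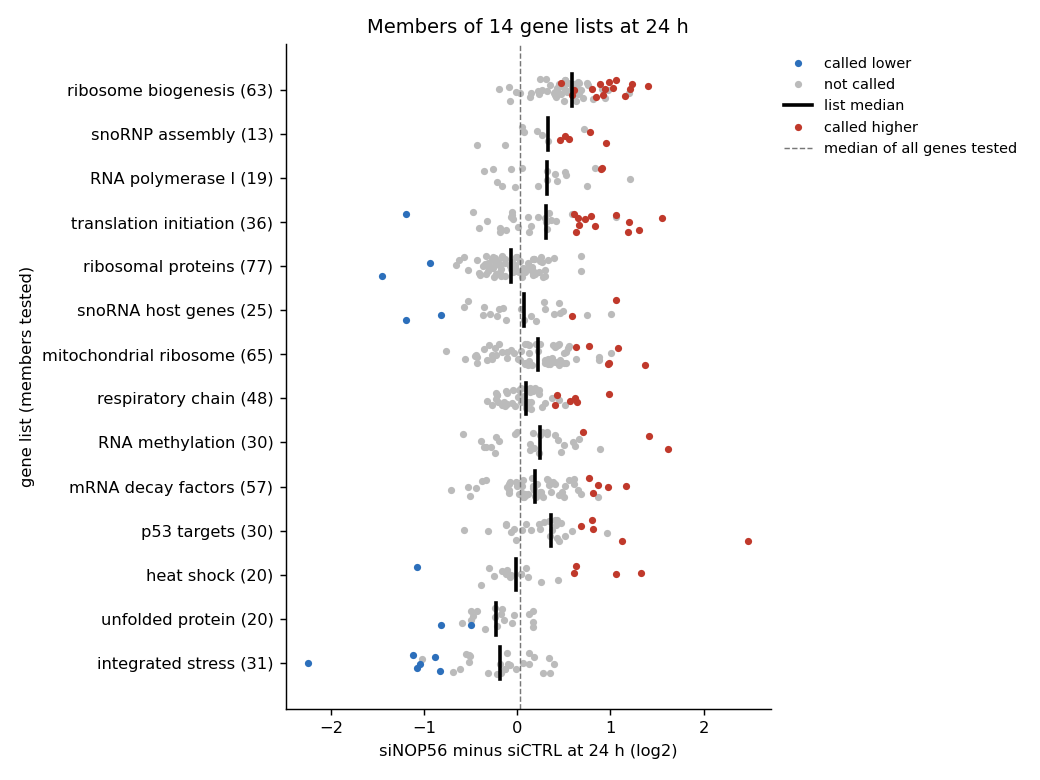
Log2 difference between siNOP56 and siCTRL at 24 h (x axis) for each tested member of 14 gene lists (y axis, number tested in parentheses); red is called higher, blue called lower, grey not called, the black bar is the list median and the dashed line the median of all genes. Ribosome biogenesis has its median at 0.586 with 15 red points and 0 blue, and integrated stress has 6 blue points and 0 red.

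Nuclear genes for mitochondrial proteins came from 2 lists. The mitochondrial ribosome had 6 of 65 tested members called higher, 0 lower and a median of 0.221, where 3.58% of all genes were called higher and 1.73% lower. MRPL21 was at 15.1 and 17.5 CPM in siCTRL and at 38.4 and 46.1 CPM in siNOP56 (log2 difference 1.37, SE 0.22, edgeR adjusted p = 0.00374), and MRPS5 (1.08), MRPL47 (0.99) and MRPL39 (0.97) were the next largest. The respiratory chain had 6 of 48 called higher and 0 lower beside the same shares, while its median of 0.0938 lay close to that of all genes. NDUFB9, a complex I subunit, was at 86.9 and 85.7 CPM against 169.7 and 171.8 CPM (0.98, SE 0.14, edgeR adjusted p = 0.00258), followed by NDUFA6 (0.64), ATP5O (0.61) and NDUFB10 (0.57). Without siCTRL replicate 1, siCTRL replicate 2, siNOP56 replicate 1 or siNOP56 replicate 2 the respiratory chain count was 1, 1, 3 and 1, and that of the mitochondrial ribosome 1, 1, 6 (with 2 lower) and 3.

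RNA methylation enzymes had 3 of 30 called higher and 0 lower, against 3.58% and 1.73% of all genes. Besides METTL5, these were TRMT61A, the catalytic part of the tRNA m1A methyltransferase, at 32.9 and 36.7 CPM against 77.1 and 108.1 CPM (log2 difference 1.41, SE 0.40, edgeR adjusted p = 0.0497), and METTL1, which makes m7G in tRNA (0.71, edgeR adjusted p = 0.0492). In each fit without siCTRL replicate 1, siCTRL replicate 2 or siNOP56 replicate 2 the list held 1 call.

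Factors of mRNA decay had 5 of 57 called, all higher, against 3.58% of all genes, with a median of 0.189. The exosome gave 3 of them, EXOSC1 (1.17), EXOSC3 (0.97) and EXOSC5 (0.86), and the CCR4-NOT deadenylase complex CNOT7 (0.81). EXOSC1 was at 18.1 and 18.1 CPM in siCTRL and at 40.8 and 40.6 CPM in siNOP56 (SE 0.32, edgeR adjusted p = 0.0427). Transcripts known as targets of nonsense-mediated decay had 1 of 23 called, against 5.31% of all genes, namely ASNS, which was lower and lost its call in this list without siCTRL replicate 1 or siNOP56 replicate 2. The decay factor count was 0 with either siCTRL library left out, 7 higher and 1 lower without siNOP56 replicate 1, and 1 without siNOP56 replicate 2.

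Targets of p53 had 5 of 30 called higher and 0 lower, against 3.58% and 1.73% of all genes, and a median of 0.361. The large T antigen of HEK293T is known to bind p53. PLK2, a polo-like kinase, was low throughout, at 0.217 and 0.246 CPM in siCTRL and 1.57 and 1.10 CPM in siNOP56 (log2 difference 2.48, SE 0.47, edgeR adjusted p = 0.00823). ZMAT3, an RNA-binding protein, was at 7.73 and 6.89 CPM against 12.1 and 19.8 CPM (1.13, edgeR adjusted p = 0.0111), with EDA2R (0.81) and RPS27L (0.80) next. CDKN1A and MDM2, the best known members, were not called, with log2 differences of 0.45 (adjusted p = 0.59) and -0.12 (0.787); both were picked for mention after their values were seen. The list held 0, 0, 3 and 1 calls without siCTRL replicate 1, siCTRL replicate 2, siNOP56 replicate 1 or siNOP56 replicate 2.

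The integrated stress response, which ATF4 drives when amino acids or translation fail, had 6 of 31 genes called lower and 0 higher, against 1.73% of all genes called lower. ASNS, asparagine synthetase, was at 197 and 179 CPM in siCTRL and at 94.6 and 78.1 CPM in siNOP56 (log2 difference -1.12, SE 0.18, edgeR adjusted p = 0.00374). PCK2, a mitochondrial PEP carboxykinase, was at 91.6 and 85.5 CPM against 46.2 and 38.0 CPM (-1.07, edgeR adjusted p = 0.0292). VLDLR, a lipoprotein receptor (-2.25), and DDIT4, an inhibitor of mTORC1 (-1.05), were called at edgeR adjusted p of 0.0446 and 0.0494. The size for VLDLR rests on low counts: with 0.5 CPM added to each value it was -1.10 in siNOP56 replicate 1 and -1.68 in replicate 2. The median of the list was -0.191, with 8 members above 0. The calls were 1, 2 and 1 lower without siCTRL replicate 1, siCTRL replicate 2 or siNOP56 replicate 2, and 5 lower with 1 higher without siNOP56 replicate 1.

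Chaperone genes of the endoplasmic reticulum and of the cytosol are given apart. Of 20 genes of the unfolded protein response of the endoplasmic reticulum, 2 were called lower and 0 higher, against 1.73% and 3.58% of all genes: HSPA5, the lumenal HSP70 (315 and 308 CPM against 206 and 146 CPM, log2 difference -0.82, edgeR adjusted p = 0.0215), and PDIA6, a disulfide isomerase (-0.50, 0.0342). Of 20 heat shock genes 4 were called higher and 1 lower, beside the same shares. DNAJA1, an HSP40 cochaperone, was at 34.1 and 35.6 CPM against 78.3 and 97.3 CPM (1.33, SE 0.17, edgeR adjusted p = 0.000761), and HSPA8 and CHORDC1, an HSP90 cochaperone (0.63), went the same way. HSPA1B, an inducible HSP70 nearly identical to HSPA1A, was at 86.0 and 81.5 CPM against 40.3 and 39.1 CPM (-1.08, edgeR adjusted p = 0.026), and reads of the 2 copies may not be told apart. Without siCTRL replicate 1, siCTRL replicate 2 or siNOP56 replicate 2 the heat shock list held 1 call, DNAJA1, and the reticulum list 0.

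The remaining lists held few calls, to be read beside the 3.58% of all genes called higher and the 1.73% called lower. S phase genes had 3 of 42 called higher and 1 lower: MCM5 (log2 difference 0.51) and MCM2 (0.49), of the replicative helicase, and CDC45 (0.63), which activates it, against the transcription factor E2F2 (-0.95). CDC20, an activator of the anaphase-promoting complex, was the 1 called among 37 G2 and M genes, at 114 and 102.6 CPM in siCTRL and 177 and 161 CPM in siNOP56 (0.64, edgeR adjusted p = 0.0161). Of 17 histone genes tested HIST1H2BN was called higher (1.46), at under 2 CPM in every library. Of 46 mRNAs known to turn over fast, SOCS3 (-2.22) and PIM1 (-0.97) were called lower and 0 higher. SOCS3 rests on low counts too: with 0.5 CPM added to each value it differed by -0.951 in siNOP56 replicate 1 and -1.575 in replicate 2. None of these 4 lists held a call without siCTRL replicate 1, siCTRL replicate 2 or siNOP56 replicate 2.

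No gene of cholesterol synthesis, glycolysis or the interferon response was called in edgeR with all libraries, against 5.31% of all genes. The unadjusted counts below are to be read beside 1862 genes higher and 1294 lower of all 14939 tested. Cholesterol synthesis had 1 gene higher and 3 lower of 24 at an unadjusted p below 0.05, with INSIG1 at a log2 difference of -1.20 (adjusted p = 0.0721) and IDI1 at -0.75 (0.098). Glycolysis had 1 higher and 3 lower of 21, with PFKFB4 at -0.88 (0.0883) and HK2 at -0.61 (0.0576). Interferon response genes had 0 higher and 3 lower of 27, with IFIT1 at -1.09 (0.159) and STAT2 at -0.30 (0.152). DESeq2 called 2, 2 and 0 genes of the 3 lists, all lower. In edgeR glycolysis had 2 called lower without siNOP56 replicate 1, 1 lower with a filter at 1 CPM, and 1 higher and 1 lower with a replicate block, and cholesterol synthesis had 1 lower with no filter and 1 lower with the block.

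Genes called higher had a shorter median transcript than genes called lower. The longest coding transcript of GENCODE release 29 had a median of 2583 nt (quartiles 1799 and 4137) for 498 of the 535 genes called higher and of 3926 nt (quartiles 2656 and 5544) for 234 of the 259 called lower, against 3451 nt for 13039 of all 14939 genes tested. Their median GC content was 48.6% and 53.1%, against 49.4%. The part of length and GC content in the calls was not tested.

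The siNOP56 difference at 24 h was compared with the one already present at 0 h, before the decay course began. By the test of that difference, edgeR called 0 genes, with 543 at an unadjusted p below 0.05 (261 higher, 282 lower) and a smallest adjusted p of 0.509, and DESeq2 called 14. With a term for replicate number within each siRNA, which takes up the deviations that same-numbered libraries share over the hours, edgeR called 314 genes, 203 higher and 111 lower. The labels do not say that a number ties libraries of different hours together. The 2 hours share no library. Values at the other hours ran the same way: of the 535 genes called higher at 24 h, both siNOP56 libraries were above both controls for 497 at 0 h, 510 at 6 h and 518 at 12 h, or 92.9%, 95.3% and 96.8%, against 35.1%, 26.8% and 25.6% of all genes tested. Of the 259 called lower, both were below for 231, 239 and 245, or 89.2%, 92.3% and 94.6%, against 24.9%, 27.1% and 25.1%. Since same-numbered siNOP56 libraries deviate alike at every hour, the hours are not independent.

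Sizes were smallest at 0 h. The median log2 difference of genes called higher at 24 h was 0.352 at 0 h, 0.429 at 6 h, 0.532 at 12 h and 0.742 at 24 h, and that of genes called lower was -0.49, -0.648, -0.728 and -0.959. The genes were chosen on their 24 h values, which raises the 24 h values, and no test was made of the order. In the siCTRL libraries at 0 and 12 h, outside the contrast, 8.79% of genes called higher and 14.7% of genes called lower were lower at 12 h by at least 1 log2 unit, against 20.4% of all genes tested.

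Single courses took several forms. IFRD1 was at 34.8 and 38.9 CPM in siCTRL at 0 h and at 9.15 and 11.5 CPM at 6 h, while siNOP56 was at 80.3 and 105.7 CPM at 0 h and 53.9 and 108.6 CPM at 6 h. RPL13A and SNORD17 had siNOP56 values under both controls at 0 h already, at 79.3 and 76.2 CPM against 32.2 and 33.5 CPM and at 4.52 and 5.64 CPM against 1.86 and 1.80 CPM at 0 h. METTL5 was close at 0 h, at 20.5 and 19.5 CPM against 25.5 and 24.2 CPM, and the siNOP56 difference was 1.31 log2 units larger at 24 h (SE 0.30, edgeR adjusted p = 0.88). STC2, a secreted glycoprotein of the stress list, was at 92.3 and 90.7 CPM against 84.0 and 85.5 CPM at 0 h and at 49.0 and 49.0 CPM against 28.7 and 26.4 CPM at 24 h, a difference lower by 0.72 log2 units at 24 h than at 0 h (SE 0.17, edgeR adjusted p = 0.88).

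**Figure D5:**
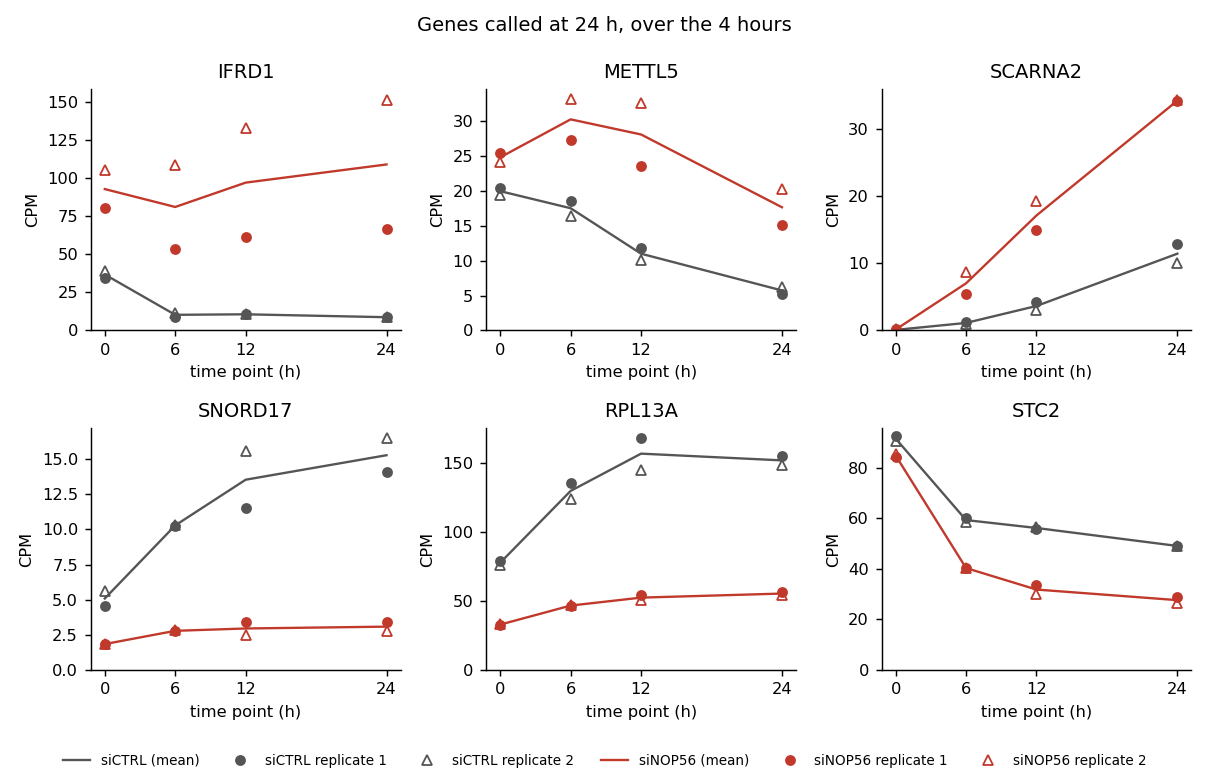
CPM (y axis) at 0, 6, 12 and 24 h (x axis) of 6 genes called at 24 h in siCTRL (grey) and siNOP56 (red); filled circles are replicate 1, open triangles replicate 2 and lines the mean. RPL13A and SNORD17 are apart from 0 h on, SCARNA2 starts near 0 CPM and reaches 34.1 and 34.2 CPM in siNOP56, and the 2 STC2 courses part after 0 h.

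Among genes averaging 5 CPM or more, the smallest p for a more positive difference at 24 h belonged to PSMB6, a proteasome subunit, at 72.2 and 71.7 CPM against 80.2 and 82.4 CPM at 0 h and 61.9 and 61.0 CPM against 112 and 117.5 CPM at 24 h (0.73, SE 0.15, edgeR adjusted p = 0.669). PDCD5 (0.93), NUDCD1 (0.93), METTL5 (1.31) and RITA1 (0.89) came next among higher genes. Among lower genes SMAD7, an inhibitor of TGF-beta signalling (-1.56), ISL1, a homeobox factor (-1.80), ZNF280B (-1.22) and EXD3 (-1.11) had the smallest p besides STC2. At 24 h ISL1 was at 2.21 CPM or less in the siCTRL and siNOP56 libraries. None of these 10 passed the adjustment in edgeR without a replicate term. With the term for replicate number within each siRNA all 10 passed, at adjusted p from 0.00121 (METTL5, PDCD5, PSMB6, RITA1 and ZNF280B) to 0.0411 (ISL1).

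Knockdown of FBL was set against that of NOP56 at 24 h directly, with no control library in the contrast. EdgeR's quasi-likelihood test called 10 genes higher and 6 lower in siNOP56 than in siFBL, 0.0669% and 0.0402% of the genes tested and 0.107% together, with 1731 at an unadjusted p below 0.05, while DESeq2 called 242. FBL itself accounted for the largest difference, at 484 and 316 CPM in siNOP56 and 7.19 and 14.8 CPM in siFBL (log2 difference 5.18, SE 0.36, edgeR adjusted p = 1.34e-06). NOP56 was at 88.0 and 51.5 CPM against 139.5 and 138.1 CPM and was not called (-0.99, SE 0.22, adjusted p = 0.0859).

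SDC4, a cell surface heparan sulfate proteoglycan, was at 16.8 and 9.94 CPM in siNOP56 and at 2.59 and 3.76 CPM in siFBL (log2 difference 2.07, SE 0.27, edgeR adjusted p = 0.00446). Its siCTRL values were 18.1 and 19.3 CPM, and it was not called against them. PALM3, a paralemmin (1.53), UBE3C, a ubiquitin ligase (1.23), and LPAR2, a receptor for lysophosphatidic acid (1.11), were also higher in siNOP56. COMP, NOTCH3, DDX46 and ATP2A3 were called higher than in siFBL too.

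CDS1, which makes CDP-diacylglycerol, was at 7.27 and 6.28 CPM in siNOP56 and at 16.5 and 21.5 CPM in siFBL (log2 difference -1.49, SE 0.23, edgeR adjusted p = 0.0142), with 14.3 and 14.7 CPM in siCTRL. RECK, a membrane inhibitor of matrix proteases, was at 6.02 and 8.23 CPM against 17.7 and 15.6 CPM (-1.22, edgeR adjusted p = 0.00924). PTK2, the focal adhesion kinase (-1.11), IGF2R, a sorting receptor (-0.83), SH3GLB1, a membrane-bending protein (-0.73), and DIS3L, a cytoplasmic exosome nuclease, were lower as well.

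PALM3, UBE3C, CDS1 and RECK were also called against siCTRL, in the same direction. NOTCH3 (log2 difference against siCTRL -0.71), ATP2A3 (-0.68) and SH3GLB1 (0.75) were called against siCTRL in the opposite direction. These are 7 of the 16 genes called against siFBL. The count was 51 without siFBL replicate 1, 10 without siFBL replicate 2, 8 without siNOP56 replicate 1, 7 without siNOP56 replicate 2 and 1 in a fit of the 4 libraries alone. Of the 10 genes given with values, FBL and SDC4 kept the call whichever library was left out. Scaling to ribosomal protein mRNAs put the all-gene median at -0.149, where it had been 0.00139, and left 3 genes called, all higher.

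The 2 knockdowns share the siCTRL libraries, so their values are set side by side only. IFRD1 was at 127 and 202 CPM in siFBL, beside 66.6 and 151.8 CPM in siNOP56. SNORD17 was at 2.20 and 2.40 CPM in siFBL beside 3.40 and 2.74 CPM, and RPL13A at 30.6 and 34.7 CPM beside 56.4 and 54.3 CPM (siNOP56 minus siFBL 0.76, edgeR adjusted p = 0.0621). SCARNA2 was at 90.6 and 70.6 CPM in siFBL, above the 34.1 and 34.2 CPM of siNOP56 (siNOP56 minus siFBL -1.24, edgeR adjusted p = 0.096), and ASNS at 70.8 and 61.2 CPM beside 94.6 and 78.1 CPM. The median difference between siNOP56 and siFBL was 0.0489 over ribosome biogenesis genes, 0.103 over translation initiation factors and 0.00139 over all genes.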

How the data were processed

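Polyadenylated RNA of HEK293T cells was sequenced, and the deposited tables hold raw counts per gene, whole numbers that the authors did not normalise. TopHat2 2.1.1, HOMER and Trim Galore and the builds hg38, GRCh38.p13 and hg19 are named in the submitters' processing notes without a role, so count features get no coordinates here. The strand setting of the counting is not given in the sources used, and overlapping, antisense and near-identical genes may share reads. Libraries were matched to groups by their labels, and no column was left unmapped.

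Counts were fitted in edgeR 4.0.16 (R 4.3.3) by the quasi-likelihood test, with filterByExpr, TMM scaling and 1 mean for each siRNA and hour over all 24 HEK293T libraries (16e6 to 19.9e6 counts, 12 residual degrees of freedom). Same-numbered siNOP56 and siFBL libraries deviated alike over the hours, so these 12 degrees of freedom are not independent. Contrasts tested were 3: siNOP56 against siCTRL at 24 h, the same compared with 0 h, and siNOP56 against siFBL at 24 h, each adjusted by Benjamini-Hochberg over 14939 genes at 0.05. SE is the log2 difference divided by the root of its F value. Gene lists were counted, with medians, and not tested. The pipeline was tested on simulated data. Those libraries were drawn independently with 1 spread per gene for all groups, so deviations shared over the hours and unequal spread between siRNAs were not covered.

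Alternatives were DESeq2 1.42.0, its size factors, scaling to ribosomal protein mRNAs, other filters, the contrast's libraries alone, replicate blocks and each library left out. Named genes were the 4 core box C/D proteins, the 10 highest and 10 lowest called genes averaging 5 CPM or more without overlap, up to 4 called members of each list by size (or 2 by smallest p), and 5 in each direction for the other contrasts. Members and lists were chosen with earlier results of these data known. Sequences come from GENCODE release 29 (GRCh38) and RefSeq (GRCh38.p14). Mitochondrially encoded genes were not analysed here, and a few single-gene values are not reported here.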

Additional observations from a re-analysis of the deposited data

Results flagged for a closer look

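For 6 of the named genes every siNOP56 library lay on one side of every siCTRL library at 24 h and on the opposite side at 0 h, and none passed the adjusted test of that difference in edgeR without a replicate block. With the block nested in siRNA the adjusted p was 0.0411 for ISL1, 0.00496 for SMAD7 and 0.00121 for ZNF280B, and it was not tabulated for the other 3. HIST1H2BN was higher at 24 h (log2 difference 1.46) and lower at 0 h, where it was at 0.532 and 0.689 CPM in siCTRL and 0.443 and 0.475 CPM in siNOP56. SNORD43 was lower at 24 h (-1.91) and at 0.266 and 0.215 CPM against 0.310 and 0.712 CPM at 0 h. SNORD80 was lower at 24 h (-2.76) and at 2.22 and 2.24 CPM against 2.97 and 2.37 CPM at 0 h. ISL1 was lower at 24 h (-1.68) and at 9.22 and 9.38 CPM against 10.6 and 9.59 CPM at 0 h. Its 24 h difference rests on low counts, at 1.01 and 2.21 CPM in siCTRL and 0.393 and 0.61 CPM in siNOP56. SMAD7 (-0.54 at 24 h) was at 9.22 and 8.86 CPM against 15 and 21.7 CPM at 0 h, and ZNF280B (-0.67 at 24 h) at 16.2 and 15.8 CPM against 20.4 and 26.4 CPM. SMAD7 and ZNF280B were not called at 24 h.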

How the results depend on the processing

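For siNOP56 against siCTRL at 24 h, 794 genes were called. Counts of 774 with DESeq2 size factors, 599 with no filter and 865 with a filter of at least 1 CPM in 2 libraries were within 1.5 times of it. The count was 238 scaled to ribosomal protein mRNAs (233 of them shared with the 794), 1309 with DESeq2 (873 higher, 436 lower), 0 with the 4 libraries alone and 31 to 1087 with 1 library left out. The cause of these moves was not tested. With a replicate block over all 24 libraries it was 1485 (964 higher, 521 lower), among them all 794. The numbers were not taken as pairs: the deviations of same-numbered siNOP56 and siCTRL libraries at 24 h correlated by 0.097, and the labels give the numbers no further meaning.

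For 24 h compared with 0 h, the count of 0 became 14 with DESeq2 (13 higher, 1 lower) and 314 with a replicate block nested in siRNA (203 higher, 111 lower), and it was 0 with each of the 8 libraries left out in turn. For siNOP56 against siFBL the 16 calls became 3 scaled to ribosomal protein mRNAs, 242 with DESeq2, 32 with the filter at 1 CPM, 1 with the 4 libraries alone, 76 with the replicate block and 7 to 51 with 1 library left out.

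Among genes named, the leukocyte marker CD68, which was not called, changed sign and ran from -0.074 (without siCTRL replicate 2) to 0.653 (without siCTRL replicate 1). Of the 81 genes taken by the naming rule from the calls against siCTRL, 70 lost the call without siCTRL replicate 1, 70 without siCTRL replicate 2, 10 without siNOP56 replicate 1, 69 without siNOP56 replicate 2, 37 when scaled to ribosomal protein mRNAs and 81 with the 4 libraries alone. With 2 libraries a group the precision is limited by the spread between libraries. Small nucleolar RNAs and other genes under 3 CPM rest on few reads.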
